A study of Homo sapiens with 6 samples.

Results

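The mRNAs of the kinesin motor family were examined in native ORC1 RNA immunoprecipitation sequencing (RIP-seq) of nuclei from HCT116, a human colorectal cancer cell line. ORC1 belongs to the complex that binds replication origins, and RIP-seq recovers RNA together with an antibody-bound protein. All libraries came from untreated, asynchronous cells of this line: 3 inputs of nuclear lysate that received no antibody, and 3 precipitates (ORC1 IP) pulled down by an antibody against ORC1. The study asked which RNAs ORC1 contacts, and the comparison here asked whether kinesin mRNAs made up more of the ORC1 IP than of the input. Members were the genes with a KIF or KIFC symbol followed by a digit, which gave 38 genes of the 23013 listed. Another 2 rows fit the symbol pattern and were left out, the pseudogene KIF4CP and the antisense RNA KIF9-AS1. No rows were used here for KIF2B, KIF6, KIF19 and KIF25. A precipitate with control antibody was not analysed here, so values compare ORC1 IP with input only.

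Kinesins are ATP-driven motors that share a conserved motor domain and move along or remodel microtubules. Most walk towards the plus end and carry vesicles, organelles or ciliary cargo, while others build the mitotic spindle, move chromosomes or complete cytokinesis. Kinesin-13 members depolymerise microtubule ends and kinesin-14 members carry the motor at the other end of the chain. A dividing epithelial line relies on the spindle motors to separate its chromosomes, and their mRNAs rise and fall with the cell cycle. In bulk RNA from asynchronous cells, fewer cells with an mRNA and less of it per cell cannot be told apart.

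Whole reads recovered from the deposited values numbered 13703033 to 17248924 in inputs and 25134156 to 36008733 in ORC1 IPs. ORC1 IP 2 stood apart for kinesins, and not for them alone: it held the lowest of the 3 ORC1 IP values for 29 of 37 kinesin genes (78.4%), against 40.3% of all 16513 genes tested, 23 of 26 spindle and midzone partners and 15 of 21 genes of dynein and dynactin. Its level was a median of 0.393 times the mean of the other ORC1 IPs for kinesins, 0.376 times for the spindle and midzone partners and 0.958 times for all genes. Its total of normalised counts was the lowest of all libraries. Over all genes tested, the fold change within replicate 2 had a Spearman correlation of -0.35 with mean input. The same correlation was 0.057 and 0.035 in replicates 1 and 3. Kinesins made up 0.372% of all normalised counts in ORC1 IP 2, beside 0.542% and 0.504% in ORC1 IPs 1 and 3. What part of the low kinesin values of ORC1 IP 2 went with input level was not tested. The count of kinesins called is therefore given with and without this library. The epithelial markers EPCAM, KRT8, KRT18 and CDH1 were present in every library, at 560.3 or more normalised counts. Of the markers of other cells, VIM lay between 62.6 and 79.1 normalised counts and COL1A1 between 161 and 787, and PTPRC and PECAM1 had no row. The methods describe the ORC1 RIP as triplicate experiments without naming separate cultures, so p-values measure the spread between these libraries.

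Kinesin mRNAs were mostly higher in ORC1 IP than in input, and those of 6 motors passed the test across all genes. The values are normalised counts, which are reads per gene divided by a size factor of the library, and fold changes are differences of log2(normalised count + 1). Of the 38 genes, 37 had a mean normalised count of at least 10 and were tested. KIF1A, a neuronal vesicle motor, was not, with 1.06, 7.88 and 5.85 in inputs and 5.76, 1.16 and 2.98 in ORC1 IPs. The fold change was positive for 34 of 37 kinesins (91.9%), beside 50.7% of all genes tested. The median log2 fold change was 1.05 over kinesins and 0.014 over all genes tested. In limma with Benjamini-Hochberg adjustment over all genes and a threshold of 0.05, 6 of 37 kinesins (16.2%) were higher, against a background of 2.28% of all genes. No kinesin was lower by limma, edgeR or DESeq2, nor by limma at an unadjusted p under 0.05. The background of lower calls by limma was 1.42% of all genes. The study's own threshold asks for an unadjusted p under 0.05 and a log2 fold change over 1, and the study used DESeq2. At this threshold in limma, 19 of 37 kinesins were higher (background 10.9%) and 0 were lower by a log2 fold change of 1 (background 7.25%). Every ORC1 IP exceeded every input for 13 of 37 kinesins (background 12.7%), and for 0 of 37 every ORC1 IP lay below every input (background 13.5%).

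**Figure D1:**
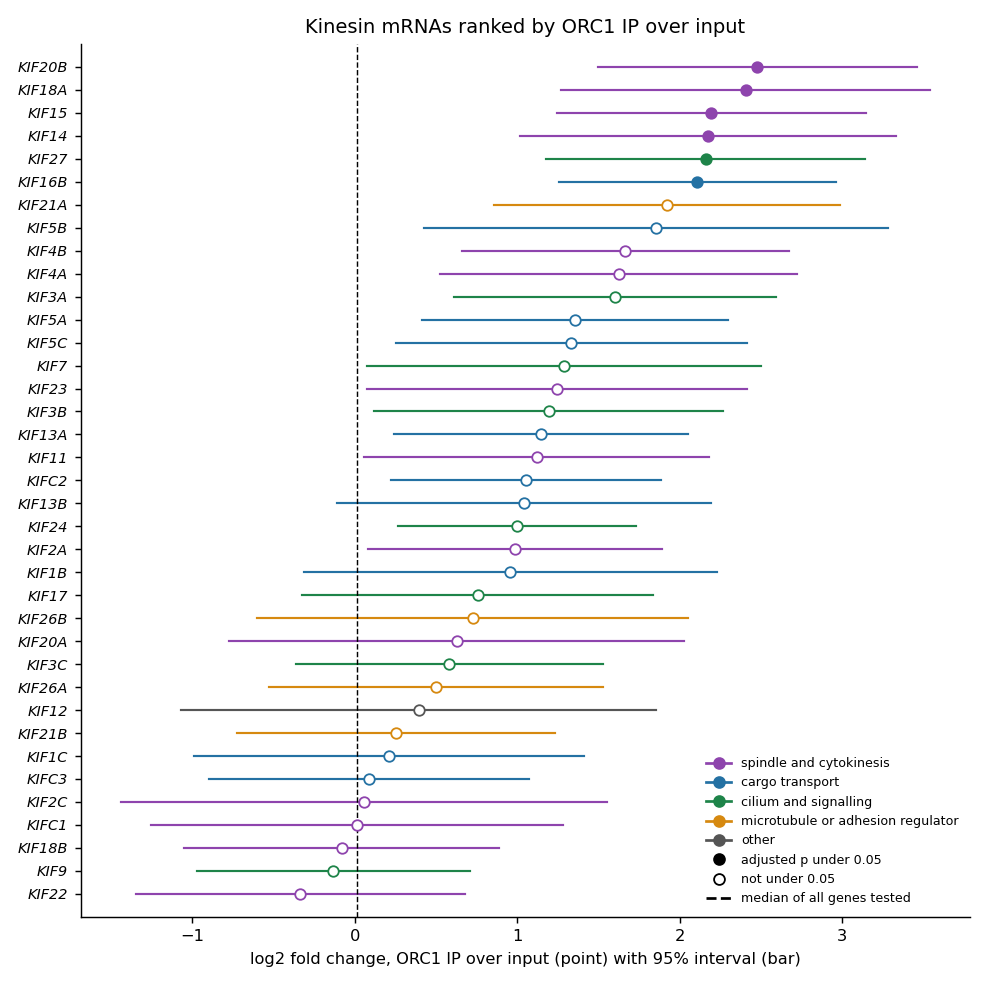
Log2 fold change of ORC1 IP over input (horizontal axis) for the 37 kinesin genes tested, from limma on 3 ORC1 IP and 3 input libraries. Points are estimates, bars 95% intervals, colours the role of the motor, and filled points an adjusted p under 0.05. The 6 filled points lie between 2.11 and 2.48, and the dashed line marks the median of all genes tested, 0.014.

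The 6 motors called higher were KIF20B, KIF18A, KIF15, KIF14, KIF27 and KIF16B, and the first 4 of these act in the spindle or in cytokinesis. KIF20B, a kinesin-6 of the late cytokinetic bridge, had normalised counts of 1412, 1138 and 648 in inputs and 8336, 3656 and 5924 in ORC1 IPs. The lowest ORC1 IP thus exceeded the highest input, and the log2 fold change was 2.48 ± 0.45 (SE; limma, adjusted p = 0.0169, n = 3 per group), the largest of the family. KIF18A, a kinesin-8 that limits chromosome movement at the metaphase plate, measured 1351, 552 and 329 in inputs and 4754, 1943 and 3971 in ORC1 IPs. Its groups did not overlap either, and it was higher by 2.41 ± 0.52 on the log2 scale (SE; limma, adjusted p = 0.0303).

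KIF15, a kinesin-12 that helps to keep the spindle bipolar, measured 911, 758 and 465 in inputs and 5020.1, 1885 and 3269 in ORC1 IPs (log2 fold change 2.20 ± 0.44, SE; limma, adjusted p = 0.0232). KIF14, a kinesin-3 that works with citron kinase in cytokinesis, measured 1836, 766 and 499.6 in inputs and 4558, 2204 and 6487 in ORC1 IPs (2.18 ± 0.53, SE; limma, adjusted p = 0.0461). In both genes input 1 was the highest input and ORC1 IP 2 the lowest ORC1 IP, and for KIF14 the gap between 1836 and 2204 was the narrowest of the 4 spindle motors. KIF27, a kinesin-4 linked to motile cilia, had low counts, with 78.1, 33.1 and 35.1 in inputs and 233, 222 and 165 in ORC1 IPs (2.16 ± 0.45, SE; limma, adjusted p = 0.0268). KIF16B, which carries early endosomes, measured 251, 119.8 and 138 in inputs and 939.5, 593 and 607 in ORC1 IPs (2.11 ± 0.39, SE; limma, adjusted p = 0.0174). KIF27 was the only one of the 6 in which ORC1 IP 2 was not the lowest ORC1 IP. Its exons share 18.9% of their 50-base words with other annotated genes, most often with an unprocessed pseudogene, so its reads could have been split between copies.

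**Figure D2:**
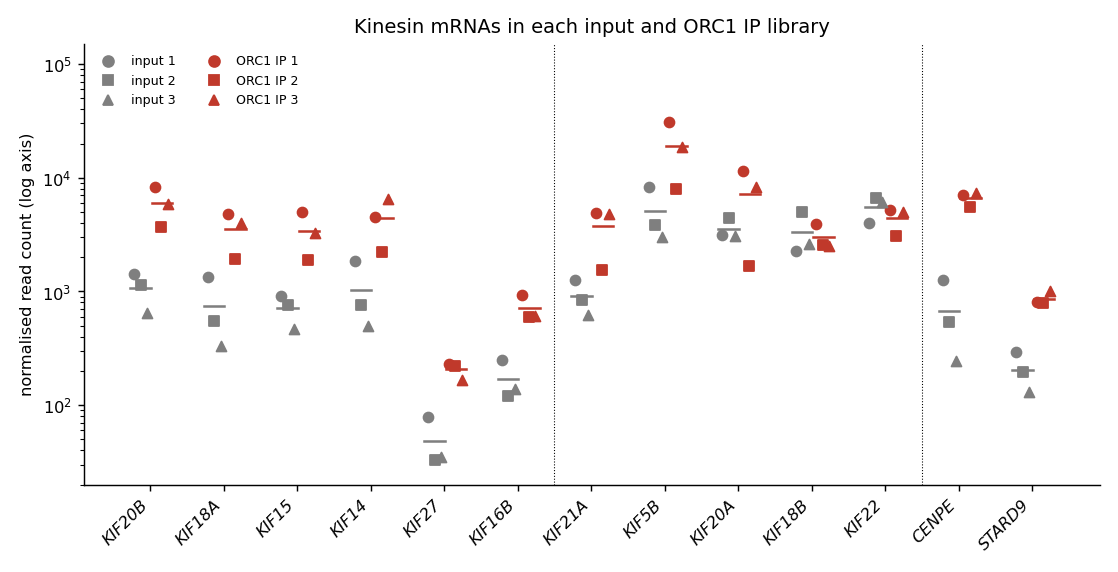
Normalised read counts (vertical log axis) in each library for the 6 kinesin genes called higher (left), 5 kinesin genes not called (middle) and 2 motors without a KIF symbol (right). Grey symbols are inputs, red symbols ORC1 IPs, the symbol shape gives the replicate number and short lines are group means. For KIF20B the ORC1 IPs lie between 3656 and 8336 and the inputs between 648 and 1412, while for KIF18B and KIF22 the groups overlap.

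How many kinesins passed depended on single libraries. Without ORC1 IP 2, limma called 24 of 37 kinesins higher (background 11.9%), among them KIF4A, KIF4B, KIF5A, KIF5B, KIF5C, KIF11, KIF20A, KIF21A and KIF23. Without input 2, input 3 or ORC1 IP 3, limma called 0 kinesins, against backgrounds of 0.291%, 0.0363% and 0.145% of all genes. In each of these fits 13 kinesins passed the study's threshold, with backgrounds of 8.19%, 6.66% and 9.93%. Without ORC1 IP 1, limma called 3 (background 1.19%), which were KIF15, KIF16B and KIF20B. Without input 1, it called 7 (background 2.44%), the 6 motors above and KIF3A. The median log2 fold change of the kinesins tested lay between 0.915 and 1.504 when each library was left out in turn. On whole reads, DESeq2 called 12 kinesins higher (background 7.67%) and edgeR 7 (background 2.57%). The 12 were the 6 motors above with KIF21A, KIF3A, KIF4A, KIF4B, KIF5A and KIF5B. With total counts as the scale, limma called 2 kinesins, KIF20B and KIF15 (background 0.527%). On that scale the median over all genes was -0.19 and the kinesin median 0.84, so the kinesin median lay 1.03 above that of all genes.

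How far the family as a whole was shifted differed between the ORC1 IPs. Against the mean of the 3 inputs on the log2 scale, the kinesin median was 1.34 in ORC1 IP 1, 0.42 in ORC1 IP 2 and 1.68 in ORC1 IP 3, where all genes tested gave -0.0072, -0.023 and 0.067. More than 1 log2 unit above the inputs were 25 of 37 kinesins in ORC1 IP 1, 10 in ORC1 IP 2 and 23 in ORC1 IP 3. The same share over all genes tested was 19.5%, 17.5% and 17.7%. The lowest kinesin value, -1.72, belonged to ORC1 IP 2. With each ORC1 IP set against the input of its own number, the kinesin medians were 1.28, 0.46 and 1.79 for replicates 1, 2 and 3.

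**Figure D3:**
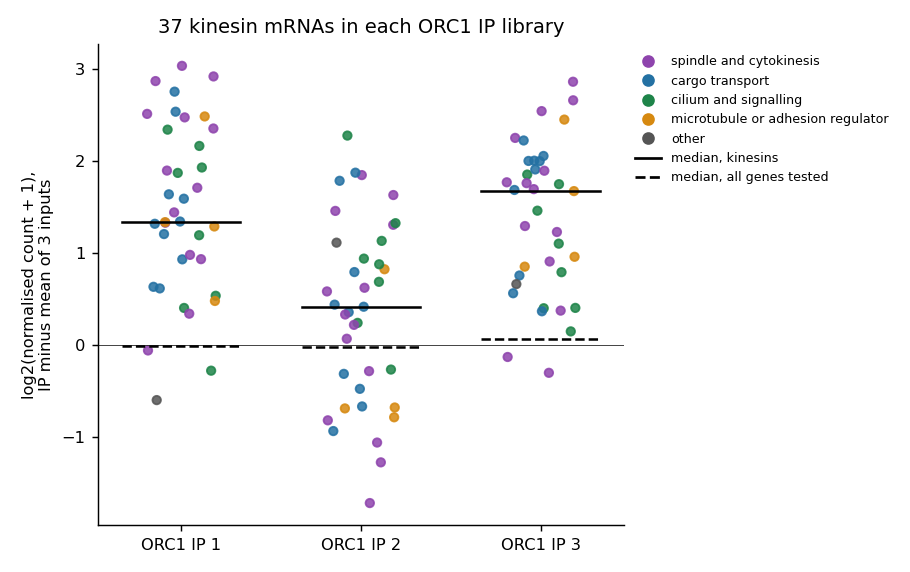
Log2(normalised count + 1) of each of the 37 kinesin genes in an ORC1 IP library minus its mean over the 3 inputs (vertical axis). Points are genes coloured by role, solid lines the kinesin medians (1.34, 0.42 and 1.68) and dashed lines the medians of all genes tested, which lie near 0.

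Kinesins together took a larger share of all normalised counts in ORC1 IP. The share was 0.318%, 0.284% and 0.254% in inputs and 0.542%, 0.372% and 0.504% in ORC1 IPs. The groups did not overlap, and the mean was 0.285% ± 0.032 (SD, n = 3) in inputs and 0.473% ± 0.089 in ORC1 IPs, a ratio of 1.66 (exact permutation test, two-sided, p = 0.1, which is the smallest for 3 against 3). KIF5B, the widely expressed heavy chain of conventional kinesin-1, supplied 14.4%, 6.27% and 6.18% of the kinesin counts in inputs and 19.0%, 14.7% and 13.6% in ORC1 IPs. Regardless of length, it had the most counts of all kinesins in the 3 ORC1 IPs and in input 1, while KIF2C had the most in input 2 and KIF1C in input 3. Per kilobase of the canonical transcript, the highest mean levels in input were those of KIF22 (2680.0 normalised counts per kilobase), KIFC1 (1866) and KIF2C (1742). In ORC1 IP on the same scale KIF5B led with 3268, before KIF20A with 2306 and KIF2C with 2267.

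Among the spindle and cytokinesis motors, 14 were tested and 12 had a positive fold change (85.7%, beside 91.9% of all kinesins tested and 50.7% of all genes). Of the 14, 4 were called higher (background 2.28%), and the median log2 fold change was 1.18. KIF4A, the chromokinesin that sets the length of the midzone, measured 1860.2, 1946 and 1217 in inputs and 9380.5, 2457 and 5598 in ORC1 IPs (log2 fold change 1.62 ± 0.51, SE; limma, adjusted p = 0.0911). KIF4B, its intronless copy, measured 159, 162 and 118 in inputs and 813, 224 and 543 in ORC1 IPs (1.67 ± 0.46, SE; limma, adjusted p = 0.0633). Neither passed, although every ORC1 IP was above every input in both genes. The transcripts of KIF4A and KIF4B share 14.2% and 13.97% of their 50-base words with other genes, most often with each other, so the split of reads between them is uncertain.

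KIF11, the tetrameric kinesin-5 that pushes spindle poles apart, measured 2907, 2257 and 1467 in inputs and 5788, 2477 and 6898 in ORC1 IPs. Input 1 was above ORC1 IP 2, and the log2 fold change of 1.12 ± 0.49 (SE) had a limma adjusted p of 0.206. KIF23, the motor of the centralspindlin complex, measured 2899.5, 2572 and 1529 in inputs and 8396, 2361 and 7636 in ORC1 IPs (1.24 ± 0.54, SE; limma, adjusted p = 0.202). KIF20A, which brings the chromosomal passenger complex to the midzone, had unlike values between ORC1 IPs, with 11493, 1681 and 8233 against inputs of 3123, 4457 and 3102 (0.63 ± 0.65, SE; limma, adjusted p = 0.621), and its log2 fold change was 1.47 without ORC1 IP 2. In KIF20A and KIF23 alike, ORC1 IPs 1 and 3 were above every input and ORC1 IP 2 was within or below them. For KIF2A, a microtubule depolymerase of the spindle poles, the log2 fold change was 0.99 ± 0.42 (SE; limma, adjusted p = 0.190). DIMT1 overlaps 18.7% of the KIF2A exons on the other strand and measured 771 to 896 in inputs and 388 to 708 in ORC1 IPs.

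The remaining spindle motors lay near 0. KIF2C, the depolymerase of centromeres, measured 3103, 7344 and 4507 in inputs and 9246, 1421 and 8798 in ORC1 IPs (log2 fold change 0.06 ± 0.69, SE). KIFC1, a minus-end motor that focuses spindle poles, measured 3019, 6239 and 4127 in inputs and 8159, 1761 and 5534 in ORC1 IPs (0.01 ± 0.59, SE). The processed pseudogene RPL12P1 overlaps 13.99% of the KIFC1 exons on the other strand. KIF18B, a kinesin-8 that controls astral microtubules, measured 2251, 5040.03 and 2626 in inputs and 3927, 2546 and 2514 in ORC1 IPs (-0.08 ± 0.45, SE). KIF22, a chromokinesin that moves chromosome arms, was the lowest of the family at -0.34 ± 0.47 (SE), with 4032, 6579.8 and 6119.7 in inputs and 5237, 3091 and 4985 in ORC1 IPs. The groups overlapped in these 4 genes, the limma adjusted p was 0.730 or more in each, and the 95% interval of KIF22 ran from -1.35 to 0.68. With total counts as the scale, the signs for KIF2C and KIFC1 turned negative.

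Of the 10 cargo motors tested only KIF16B was called (background 2.28%). All 10 had positive fold changes (all genes 50.7%), between 0.087 and 2.11, with a median of 1.10. KIF5B measured 8342, 3850.15 and 3020.1 in inputs and 31079.9, 7969 and 18464.7 in ORC1 IPs. Input 1 was above ORC1 IP 2, and the log2 fold change of 1.85 ± 0.66 (SE) had a limma adjusted p of 0.125. The other heavy chains of kinesin-1, KIF5A and KIF5C, had log2 fold changes of 1.36 ± 0.43 and 1.33 ± 0.50 (SE; limma, adjusted p = 0.0974 and 0.142). Among kinesin-3 cargo motors, KIF13A and KIF13B gave 1.15 and 1.04, KIF1B gave 0.96 and KIF1C 0.21. Without ORC1 IP 3, KIF13B gave 0.45 and KIF1B 0.43, and without ORC1 IP 2 they gave 1.72 and 1.67. The dendritic motor KIFC2 and the junction-associated KIFC3 gave 1.05 and 0.087. The KIF1C and KIFC3 values turned negative with total counts as the scale. FOXH1 overlaps 17.8% of the KIFC2 exons on the other strand and had no more than 17.3 normalised counts in any library, where KIFC2 had at least 333.

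Of the 8 motors of cilia and signalling tested, 7 had positive fold changes (all genes 50.7%). Only KIF27 was called (background 2.28%), and the median was 1.09. KIF3A and KIF3B, which pair in the kinesin-2 motor of intraflagellar transport, had log2 fold changes of 1.60 ± 0.46 and 1.19 ± 0.50 (SE; limma, adjusted p = 0.0695 and 0.183). With the replicate block KIF3A passed, at an adjusted p of 0.0406 in limma. The third kinesin-2 subunit, KIF3C, gave 0.58, and KIF9, which has the only negative value of this group, gave -0.13. KIF9-AS1 overlaps 14.8% of the KIF9 exons on the other strand and measured 41.0 to 81.98 normalised counts where KIF9 measured 96.7 to 130.4. KIF7, the motor of Hedgehog signalling, was higher by 1.29 ± 0.56 (SE; limma, adjusted p = 0.203). Its exons overlap TICRR on the other strand over 10.8% of their length, and TICRR itself measured 1117 to 1860 in inputs and 2595 to 6391 in ORC1 IPs, where KIF7 measured 18.7 to 112.8 over all libraries. The 4 regulators of microtubule growth and adhesion were not called, with a median of 0.61. KIF21A, which restrains microtubule growth at the cell cortex, measured 1258, 848 and 615 in inputs and 4879.65, 1540.3 and 4765 in ORC1 IPs. Its log2 fold change of 1.92 ± 0.49 (SE) had an adjusted p of 0.0509 in limma and 0.0373 with the replicate block.

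Several closely related motors had unlike fold changes, among them KIF18A and KIF18B. The log2 ratio of 2 mRNAs within a library does not depend on how libraries are scaled, and it was compared for 14 pairs of one family or one task. KIF18A over KIF18B was -0.74, -3.19 and -2.99 in inputs and 0.28, -0.39 and 0.66 in ORC1 IPs, so KIF18A had fewer counts than KIF18B in every input and more in 2 of 3 ORC1 IPs. The ratio was 2.49 ± 0.84 (SE) higher in ORC1 IP on the log2 scale, or 5.61-fold. KIF20B over KIF20A was -1.14, -1.97 and -2.26 in inputs and -0.46, 1.12 and -0.47 in ORC1 IPs, a difference of 1.85 ± 0.63 (SE). KIF21A over KIF21B was 2.29, 1.72 and 0.45 in inputs and 3.50, 2.99 and 2.98 in ORC1 IPs, a difference of 1.67 ± 0.57 (SE). In these 3 pairs no ORC1 IP ratio overlapped an input ratio. The pairs were chosen with earlier results of these data known, and several set a called gene over one not called. Their ratios therefore restate the fold changes above and are not separate support. How often unrelated gene pairs lack overlap was not tested.

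Smaller shifts of the same kind were found for KIF20B over KIF23 (1.24 ± 0.30, SE), KIF15 over KIF11 (1.08 ± 0.27) and KIF3A over KIF3B (0.41 ± 0.18). Each of these 6 pairs had a two-sided exact permutation p of 0.1, the smallest that 3 against 3 allows, and 0.233 after adjustment over the 14 pairs. Other pairs overlapped between groups, among them KIF2A over KIF2C (0.93 ± 0.82, SE), KIF1B over KIF1C (0.75 ± 0.49), KIF16B over KIF13B (1.07 ± 0.78) and KIF5B over KIF5C (0.52 ± 0.52). The ratio of KIF4A to KIF4B was the steadiest, at 3.35 to 3.58 in inputs and 3.36 to 3.53 in ORC1 IPs, with a difference of -0.042 ± 0.082 (SE). KIFC1 over KIFC3, KIF13A over KIF13B and KIF26A over KIF26B differed by -0.076, 0.11 and -0.23.

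**Figure D4:**
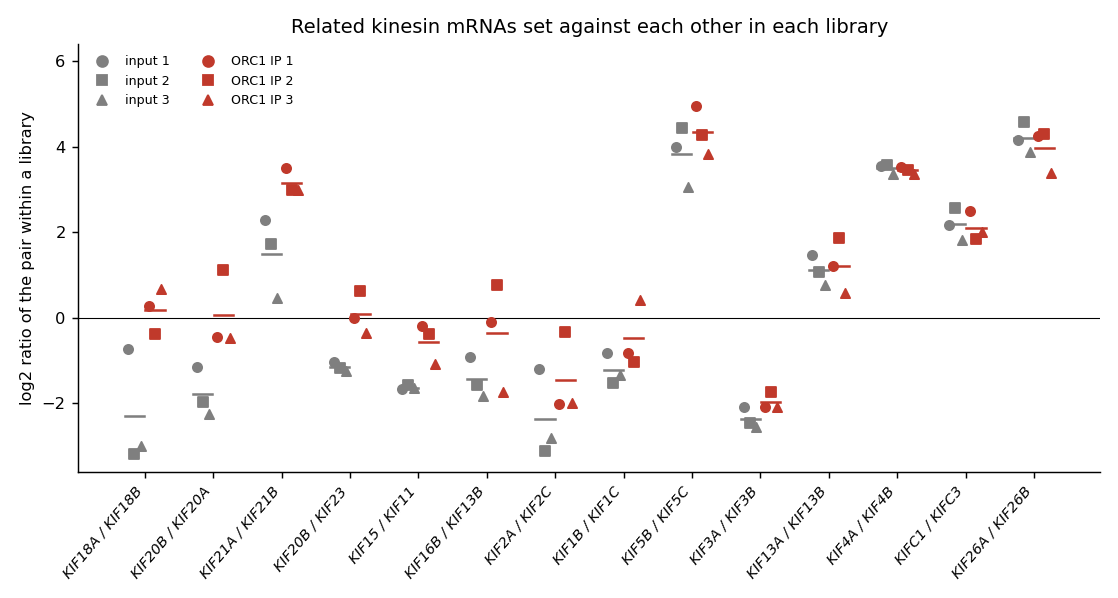
Log2 ratio of the normalised counts of 2 related kinesin mRNAs within each library (vertical axis) for 14 pairs, ordered by the difference between ORC1 IP and input. Grey symbols are inputs, red symbols ORC1 IPs, shapes the replicate number and short lines group means. KIF18A over KIF18B moves from a mean of -2.31 in inputs to 0.18 in ORC1 IPs, while KIF4A over KIF4B stays near 3.5.

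The kinesins that were highest in ORC1 IP had transcripts of low GC content. Over the 37 kinesins tested, the log2 fold change and the GC content of the GENCODE canonical transcript had a Spearman correlation of -0.74 (Pearson r = -0.71), where all 16062 tested genes with an annotation gave -0.19. These are descriptions across genes that were measured in the same 6 libraries, and genes are not independent replicates. Within replicate numbers the Spearman correlation was -0.46, -0.40 and -0.84 for kinesins and 0.14, -0.22 and -0.33 for all genes. The 6 called kinesins had a median GC content of 37.2% and the 31 others 51.1%, and the median transcript lengths were 5858.5 and 5342 bases. The Spearman correlation with coding length was 0.41 over kinesins and 0.50 over the 12537 coding genes tested. After a trend with transcript length and GC content was removed from each library, the kinesin median was 0.72 with that of all genes at -0.065, and limma called 1 kinesin (background 0.741%), KIF16B (1.73, adjusted p = 0.0499), but not KIF15 (1.77, adjusted p = 0.0544) or KIF20B (1.91, adjusted p = 0.0614). The part of base composition in the fold changes was not tested beyond this.

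**Figure D5:**
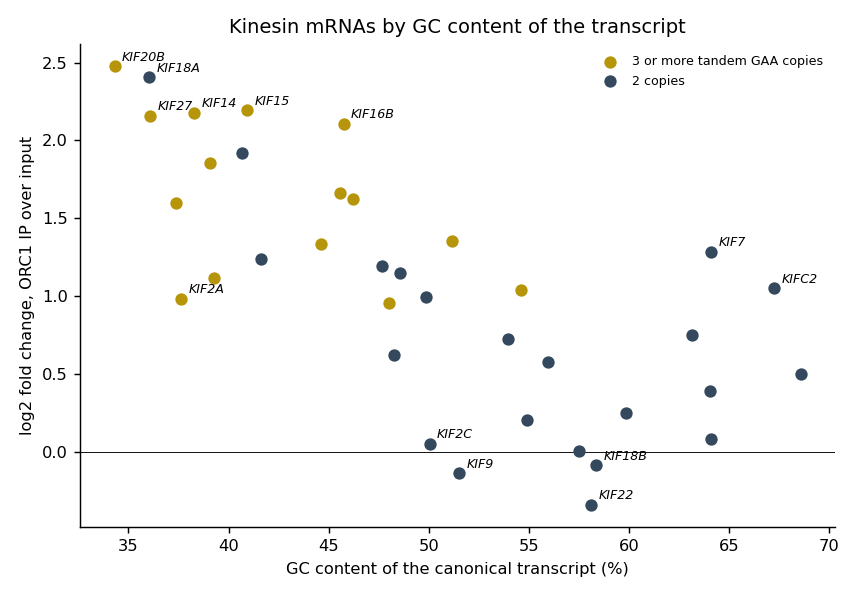
Log2 fold change of ORC1 IP over input (vertical axis) against the GC content of the canonical transcript in percent (horizontal axis) for the 37 kinesin genes tested. Gold points have 3 or more tandem GAA copies in the transcript and dark points 2, and 5 of the 6 called genes are gold. The Spearman correlation over the points is -0.74.

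Because the study examined GAA repeats in RNA, the canonical transcripts were searched on the sense strand for tandem copies of GAA. A run of 3 or more copies was found in 15 of 37 kinesins tested (40.5%), in 5 of the 6 called, and in 13.01% of all annotated genes tested. Among transcripts of 4 to 8 kilobases, which include 22 kinesins, it was found in 13 kinesins (59.1%) and in 19.0% of all genes. KIF20B held the longest run, and KIF18A was the called gene without a run of 3. The windows below are 30 bases of coding sequence, 5′ to 3′, from GENCODE v44 transcripts. They show the longest run of each called kinesin, of KIF3A as the only other kinesin with more than 3 copies, and of KIF20A for contrast with KIF20B, and capitals mark the GAA copies.
KIF20B: attaaaaGAAGAAGAAGAAGAAaccaacag
KIF3A: ctcgacatgGAAGAAGAAGAAagaaacaag
KIF15: aagtagaacaGAAGAAGAAtgaatataact
KIF14: aattcttcccGAAGAAGAAactgtagttca
KIF27: gttatcacctGAAGAAGAAcatgttctttt
KIF16B: tgcttacattGAAGAAGAAgtccaaagacg
KIF18A: gatcccaaacaaGAAGAAgtcagttttttc
KIF20A: acaggaggaaatGAAGAAgctgtccctgct

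The KIF20B window covered bases 3824 to 3853 of its transcript, inside the coding sequence at 93 to 5552, and the gene lies at chr10:89701590-89774939 on the plus strand (GRCh38). The KIF3A window covered bases 1517 to 1546, KIF15 3410 to 3439, KIF14 1455 to 1484, KIF27 3287 to 3316 and KIF16B 3530 to 3559, all within coding exons. Kinesins with a run of 3 or more had a median log2 fold change of 1.62, between 0.96 and 2.48, and those without a median of 0.60, between -0.34 and 2.41. The median GC content was 40.9% with a run and 55.4% without, and the median transcript length 6311 and 4023 bases. The run, the GC content and the length thus moved together, and which of them went with the fold change was not tested. A match describes the letters of a transcript and is not a binding site.

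Other genes of microtubule transport were compared from lists that were chosen with earlier results of these data known. The motors CENPE and STARD9 belong to the kinesin superfamily without a KIF symbol, and both were called. CENPE, the kinetochore motor of chromosome alignment, measured 1256, 537 and 247 in inputs and 7093, 5506 and 7294 in ORC1 IPs. It was higher by 3.58 ± 0.52 on the log2 scale (SE; limma, adjusted p = 0.00802), a larger estimate than for any KIF gene, with 3.00 and an adjusted p of 0.0668 when input 3 was left out. STARD9, a long mitotic kinesin of the centrosome, measured 291, 195 and 131 in inputs and 800.2, 786 and 1016 in ORC1 IPs (2.13 ± 0.38, SE; limma, adjusted p = 0.0138). It did not pass without input 2 (adjusted p = 0.0594), input 3 (0.127) or ORC1 IP 3 (0.0696), with total counts as the scale (0.0705), or with the length and GC trend removed (0.0767, and 0.112 with the block). In both motors ORC1 IP 2 was the lowest ORC1 IP, and its median ratio to the other ORC1 IPs was 0.816, beside 0.393 for the KIF genes.

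Proteins that bind kinesins had fold changes on both sides of 0. Of 10 light chains and adaptors, 6 had positive fold changes, the median was 0.11 and MAPK8IP3, a scaffold of kinesin-1, was called with 1.46 ± 0.33 (SE; limma, adjusted p = 0.0359). That call was lost with the replicate block in limma (adjusted p = 0.0606) and edgeR (0.0501), with total counts as the scale (0.150), in limma without trend (0.0732), with the length and GC trend removed (0.0632) and without any single library other than ORC1 IP 2. Without ORC1 IP 2, limma called 3 of the list higher, MAPK8IP3, KIFAP3 and KLC1 (background 11.9%). The lowest of the list was the light chain KLC3 at -0.77 ± 0.43 (SE). None of the 21 genes of cytoplasmic dynein and dynactin was called by limma. An unadjusted p under 0.05 in either direction was found for 4, beside 3575 of all 16513 genes tested. DESeq2 called 2 higher (background 7.67%) and edgeR 1 (background 2.57%). Without ORC1 IP 2, limma called 5 higher (background 11.9%) and 1 lower (background 1053 of 16513 genes). In that fit the heavy chain DYNC1H1 went from 1.201 (limma, adjusted p = 0.628) to 2.72 (0.00913). Log2 fold changes of the 21 genes ran from -0.96 for DCTN3 to 1.99 for the intraflagellar dynein heavy chain DYNC2H1 (limma, adjusted p = 0.0756), with a median of 0.10.

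The 26 spindle and midzone partners had a median log2 fold change of 0.60, between -0.62 for RACGAP1, which pairs with KIF23 in centralspindlin, and 2.41 for the spindle factor HMMR. Limma called 0 of them, and 5 had an unadjusted p under 0.05, beside 3575 of all 16513 genes tested. DESeq2 called 9 higher (background 7.67%) and edgeR 1 (background 2.57%). With the replicate block in limma, HMMR (adjusted p = 0.0135) and NUF2 (0.0418) passed (background 2.62%). With TMM scaling limma called 1 higher (background 2.40%), and with upper quartile scaling 2 (background 2.66%). EdgeR with the block called 2 (background 2.58%), and limma without input 1 also called 2 (background 2.44%). Without ORC1 IP 2, limma called 12 higher (background 11.9%). The list of tubulins held subunits of the tracks and also TUBG1, TUBG2, TUBD1 and TUBE1. Tubulins lay mostly on the other side: 9 of 12 had negative fold changes and the median was -0.85. They ran from -1.64 ± 0.53 (SE; limma, adjusted p = 0.0993) for TUBA1A to 1.09 for TUBG2. Limma and edgeR called 0, and 5 had an unadjusted p under 0.05, beside 3575 of all 16513 genes tested. DESeq2 called 3 lower, TUBA1A, TUBA1B and TUBG1 (background 718 of 16513 genes). The same number were lower in limma without ORC1 IP 2 (background 1053 of 16513 genes). With total counts as the scale, limma called 1 lower (background 96 of 16513 genes). The median transcript length was 1830.5 bases for tubulins and 5342 for kinesins, and GC medians were 53.8% and 48.6%. Tubulin genes include near-identical copies, and the counting of reads with several matches was not stated.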

How the data were processed

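Nuclear lysates of asynchronous HCT116 cells were sonicated and precleared by the authors, and ribosome-depleted total RNA libraries were made with a stranded kit after DNase treatment. Reads were trimmed with Trimmomatic, aligned with STAR to hg19 and counted per Ensembl gene with featureCounts, while strand and multi-mapping settings are not given in the sources used here. The deposited signal per library is a gene count that the authors divided by a size factor. Whole reads were recovered, with 100% of values whole at a tolerance of 0.001. The authors' columns of mean, fold change, standard error, statistic and p-values were not used.

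Differences were tested with limma 3.58.1 (R 4.3.3, intensity trend) on log2(normalised count + 1) for 16513 genes with a mean of at least 10, with 3 libraries a group, no block and Benjamini-Hochberg adjustment. Recovered reads were also tested with edgeR 4.0.16 and DESeq2 1.42.0. Scripts were tested on simulated counts with known changes. Related pairs and the kinesin share were compared by exact permutation tests (scipy 1.17.1). Transcript features were those of GENCODE v44 on GRCh38, looked up by gene identifier for 96.3% of 23013 genes. No hg19 annotation was used. An exon overlap on the other strand was found for 18 kinesins, 5 of them over at least 10% of exon length.

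The labels tie each input to the ORC1 IP of the same RIP replicate number. Deviations from group means of same-numbered libraries correlated at -0.322, -0.240 and 0.215 across genes, so the pairing was used only in alternative fits. Across numbers, input 2 correlated with ORC1 IP 1 at 0.497 and input 1 with ORC1 IP 2 at 0.223. The remaining cross-numbered correlations lay between -0.214 and 0.043. Values within a replicate number and fits with the replicate block rest on the labels, and whether these numbers match libraries correctly was not tested. Members, gene lists, roles and pairs were chosen with earlier results of these data known. Genes were named if called, if among the 3 highest or lowest, if in the spindle role or in a pair, and from other lists if called or at either end. Others named, such as NUF2, KLC1, DYNC1H1 and the genes overlapping a member, were chosen after their values were seen.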

Additional observations from a re-analysis of the deposited data

How the results depend on the processing

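Over 20 alternatives, limma, edgeR or DESeq2 called no kinesin lower, and the kinesin median stayed positive, between 0.72 and 1.504. The number called higher, 6 as reported, was 2 with total count scaling (0.527% of all genes), 3 in limma without trend (0.866%), 12 with DESeq2 (7.67%), 1 with the length and GC trend removed (0.741%) and 0 with that removal and the replicate block (0.374%), and it ranged from 0 to 24 when each library was left out. With the replicate block alone, limma (2.62% of all genes) added KIF21A and KIF3A and changed no other kinesin call. EdgeR with the block called 8 (2.58%) instead of 7 (2.57%), gaining KIF14 and KIF3A and losing KIF4B. Pseudocounts, filters, TMM and upper quartile scaling gave 6 or 7, where the share of all genes lay between 1.73% and 2.66%. Over all genes, 376 higher and 234 lower calls became 87 and 96 with total counts, and 1266 and 718 with DESeq2. Directions turned for genes near 0: with total counts KIF1C gave -0.0043, KIFC3 -0.13, KIF2C -0.16 and KIFC1 -0.20, with upper quartile scaling KIFC1 gave -0.019, and with length and GC removed, with or without the replicate block, KIF21B and KIF1C gave -0.15. Leaving out each library, log2 fold changes ranged from -0.32 to 0.91 for KIF12, -0.100 to 0.72 for KIF21B, -0.15 to 0.65 for KIF1C, -0.19 to 0.60 for KIFC3, -0.41 to 0.95 for KIF2C, -0.45 to 0.65 for KIFC1 and -0.31 to 0.27 for KIF18B, and pair differences from -0.21 to 0.43 for KIF13A over KIF13B, -0.11 to 0.0010 for KIF4A over KIF4B, -0.26 to 0.11 for KIFC1 over KIFC3 and -0.39 to 0.072 for KIF26A over KIF26B. The cause of these changes was not tested. Precision is limited by 3 libraries a group. The reads of a called kinesin numbered 21 or more in each library, and KIF27 had only 74, 21 and 30 in inputs. How far read depth limited precision was not tested.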

Other observations

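The pseudogene KIF4CP, which was no member, had normalised counts of 1.06, 1.58 and 1.17 in inputs and 24.2, 1.74 and 14.2 in ORC1 IPs, and its mean over the 6 libraries was below the filter on low values, so no fold change is given. ORC1's own mRNA measured 1588, 2693 and 1610.1 in inputs and 4389, 1011 and 3091 in ORC1 IPs (log2 fold change 0.33 ± 0.53, SE; limma, adjusted p = 0.767). As for most kinesins, ORC1 IP 2 was the lowest of the ORC1 IPs for this mRNA.

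In 4 kinesins that are not spindle motors, ORC1 IP 2 was the highest ORC1 IP instead of the lowest. KIFC2 measured 555, 1251 and 612 in ORC1 IPs 1, 2 and 3, KIF3C 261, 379.7 and 261, KIF17 36.8, 64.4 and 33.5, and KIF12 23.0, 77.8 and 56.6. These genes were chosen after their values were seen. Their canonical transcripts had GC contents of 67.2%, 56.0%, 63.1% and 64.1%. This was not particular to them, since ORC1 IP 2 was the lowest ORC1 IP for KIF26A (68.6%) and KIFC3 (64.1%). Over the kinesins tested, the log2 fold change within replicate 2 had a Spearman correlation of -0.51 with mean input and -0.40 with GC content. Over all genes tested the same correlations were -0.35 and -0.22. Whether mean input or GC content went with the order of the ORC1 IPs was not tested.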
